A study of Mus musculus with 18 samples.

Results

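The regions described here are 128 autosomal tiles of 1 kb at which DNA methylation was high in Dnmt1-knockout mouse embryonic stem (ES) cells rescued with wild-type DNMT1, low in cells rescued with the DNMT1 mutant W465A, and still low when the substitution W796A was added to W465A. Tiles were counted from position 1 of each chromosome and were usable where at least 3 CpGs had 5 or more reads in all 18 libraries. The level of a tile in a group is the sum of methylated reads over the sum of all reads of its 3 libraries, in percent. Members had a level of 60% or more in WT, 11% to 25% in W465A, and a level in W465A/W796A no more than 5 percentage points (points) above that in W465A. Of 154801 usable autosomal tiles, 22145 lay in the WT and W465A windows, and 128 of these, 0.578%, were members. The other 22017 window tiles serve as the comparison. Members were thus chosen by their measured levels in WT, W465A and W465A/W796A, so their values in those groups are a description, and nothing is read from a test that uses them.

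The assay was eRRBS, an enhanced form of reduced representation bisulfite sequencing, which cuts DNA with restriction enzymes (MspI, BfaI and MseI), converts unmethylated cytosines with bisulfite and reads the fragments. All cells lacked endogenous Dnmt1 and carried a pPyCAGIP vector, selected with puromycin, that expressed DNMT1 as WT, W796A, W465A, W464A/W465A, W465A/W796A or W464A/W465A/W796A. Each of the 6 groups had 3 libraries, labelled biological replicates. The labels describe several stable lines per group but do not say whether each replicate is a separate line. The p-values thus set a difference between groups against the spread between these libraries, which may not be that between lines. The rescue protein comes from an introduced vector rather than from the Dnmt1 locus, and no untransfected or empty-vector library was analysed here.

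DNMT1 copies methylation onto the new DNA strand after replication, at CpGs where the parental strand is methylated, and ES cells without it lose most methylation as they divide. Its RFTS domain, which holds W464 and W465, guides the enzyme to replicated chromatin through histone H3 marks and also folds back to restrain the catalytic site, and its BAH1 domain, which holds W796, reads histone H4 trimethylated at lysine 20. Methylated CpGs are recopied at every division, so the steady level of a locus reflects a balance between loss and gain over many divisions.

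The libraries held 59776439 to 138978763 CpG calls each. Replicate 1 of WT and of W796A stood below their 2 companions over window tiles in general: medians over the 22017 other window tiles were 59.6%, 80.2% and 76.6% in WT replicates 1 to 3 and 55.6%, 85.7% and 77.0% in those of W796A. In W465A, replicate 1 was the highest, with 27.3% against 14.6% and 16.1%. These libraries entered every pooled level, and the number of members without each of them is given below.

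Sequence is shown for the 6 members with the most reads in their lowest library, because these are the members whose low level in W465A/W796A rests on the most reads. Each line gives the stretch of up to 220 bases that holds most of the CpGs used, with 10 bases on either side, from the RefSeq sequence of the GRCm38 assembly, with those CpGs in capitals, and is named by the nearest protein-coding gene. CpGs left in lower case had too few reads in at least 1 library, except the first of the Barhl1 stretch, which lies outside the tile.
Tbx5 tile, chr5:119796645-119796853, GRCm38, plus strand: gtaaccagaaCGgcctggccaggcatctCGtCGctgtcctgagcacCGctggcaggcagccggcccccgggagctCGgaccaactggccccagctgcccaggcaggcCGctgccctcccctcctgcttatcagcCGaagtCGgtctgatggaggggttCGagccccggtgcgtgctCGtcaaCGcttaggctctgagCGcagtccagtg
Barhl2 tile, chr5:106467298-106467505, GRCm38, plus strand: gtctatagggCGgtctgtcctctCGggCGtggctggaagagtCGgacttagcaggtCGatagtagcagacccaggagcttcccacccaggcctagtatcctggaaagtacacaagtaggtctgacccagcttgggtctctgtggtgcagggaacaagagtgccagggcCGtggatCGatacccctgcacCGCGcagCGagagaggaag
Barhl1 tile, chr2:28911995-28912207, GRCm38, plus strand: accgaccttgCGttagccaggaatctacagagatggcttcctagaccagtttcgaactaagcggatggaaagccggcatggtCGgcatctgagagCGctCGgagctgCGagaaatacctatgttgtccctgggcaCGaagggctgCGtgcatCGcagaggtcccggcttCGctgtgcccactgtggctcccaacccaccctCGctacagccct
Hoxc11 tile, chr15:102950025-102950124, GRCm38, plus strand: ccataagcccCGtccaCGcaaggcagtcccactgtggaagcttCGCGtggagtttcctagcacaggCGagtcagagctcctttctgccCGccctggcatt
Tle3 tile, chr9:61384002-61384123, GRCm38, plus strand: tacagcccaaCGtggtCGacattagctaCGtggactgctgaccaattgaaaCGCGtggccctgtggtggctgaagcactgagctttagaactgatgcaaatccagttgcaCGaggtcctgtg
Hoxb9 tile, chr11:96264273-96264375, GRCm38, plus strand: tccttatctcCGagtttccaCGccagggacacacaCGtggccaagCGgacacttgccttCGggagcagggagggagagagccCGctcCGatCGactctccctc

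The first 4 of these tiles are nearest to genes for transcription factors of embryonic patterning. Tbx5 encodes a T-box factor of heart and forelimb. Its tile, chr5:119796001-119797000, was intergenic, 35668 bp from the gene, and had 18 usable CpGs of 34 in the reference. Barhl2 and Barhl1 encode homeobox factors of the nervous system. The Barhl2 tile, chr5:106467001-106468000, overlapped an exon of the noncoding gene Gm26872, 8835 bp from Barhl2. The Barhl1 tile, chr2:28912001-28913000, overlapped the Barhl1 promoter, taken as 500 bp either side of a transcription start. The Hoxc11 tile, chr15:102950001-102951000, overlapped the promoter, so defined, of the noncoding gene Gm27535, 3427 bp from Hoxc11, a homeobox gene of the posterior body axis. The Tle3 tile, chr9:61384001-61385000, was in an intron of Tle3, which encodes a Groucho-family corepressor. The Hoxb9 tile, chr11:96264001-96265000, overlapped the promoter, so defined, of the microRNA gene Mir196a-1 within the Hoxb cluster, 6457 bp from Hoxb9.

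At the Tbx5 tile, with 160 to 578 reads per library, levels in W465A were 29.6%, 20.7% and 17.3% in replicates 1 to 3 and in W465A/W796A 22.5%, 34.1% and 28.8%. The 2 groups overlapped, and the pooled levels were 22.6% and 26.7%. In WT the tile stood at 50%, 65.1% and 64.1%, and in W796A, which the rule did not use, at 57.4%, 84.4% and 73.0%. Both mutants with W464A/W465A were lower than all of these, at 13.9%, 13.2% and 14.5% without W796A and 14.7%, 17.1% and 11.8% with it. Among its 18 CpGs, 4 were at or below their W465A level in W465A/W796A, and the difference ran from -8.89 to 25 points.

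The Barhl2 tile, with 148 to 535 reads per library, read 32.8%, 13.5% and 19% in W465A and 18.3%, 29.7% and 28.8% in W465A/W796A. Replicate 1 was the highest W465A library and the lowest W465A/W796A library there, whereas replicates 2 and 3 were each higher in W465A/W796A. The levels in W796A were 57.9%, 86.7% and 74.3%, beside 42.8%, 68.5% and 77.2% in WT. At the Barhl1 promoter tile the libraries were closer together, with 20.4%, 19.7% and 22.8% in W465A against 23.4%, 26.1% and 27.5% in W465A/W796A. There, every W465A/W796A library was above every W465A library, by a pooled 4.07 points, and 2 of the 128 members had that order. Across all 155660 tiles, 52.1% had that order. WT at Barhl1 read 52.1%, 71.2% and 72.4%, and W796A 54.8%, 79% and 73.8%.

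At the Hoxc11 tile, W465A/W796A minus W465A was -2.45 points, from 14.9%, 21.2% and 19.6% against 25%, 16.7% and 18.8%. This tile was at 71.2%, 80.9% and 81.2% in W796A, while WT ranged widely, from 36.3% in replicate 1 to 68.8% and 81.2% in the others. In W464A/W465A it read 6.77%, 13.2% and 6.15%, and in the triple mutant 9.47%, 11.3% and 12.7%. The Tle3 tile had the lowest pooled levels of the 6 in W465A, from 18%, 8.67% and 13.7%, and in W465A/W796A, from 24.1%, 12.8% and 15.2%. Its WT level depended strongly on the library, at 24.7%, 80.2% and 69.8%, and W796A read 52.3%, 71.2% and 57.3%. The Hoxb9 tile read 20.4%, 16.1% and 20% in W465A and 21.8%, 10.9% and 24.4% in W465A/W796A, and 5 of its 10 CpGs were at or below their W465A level.

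Another 6 members had at least 50 reads in every library, which with the 6 above makes 12 deep members. The Dlx4 tile, in an intron of the antisense gene Dlx4os and 1738 bp from the homeobox gene Dlx4, read 10.4%, 26.4% and 23.4% in W465A and 12%, 25.5% and 25.3% in W465A/W796A, nearly the same value at each replicate number. The tile in an intron of Pax6os1, 4900 bp from Pax6, a paired-box gene of eye and brain, read 22.9%, 11.7% and 20.8% in W465A and 21.0%, 24.0% and 21.0% in W465A/W796A. An exon of Ddc, the gene for dopa decarboxylase, had a W465A/W796A minus W465A difference of -3.56 points, with 30.1%, 23.1% and 12.7% against 26.9%, 21.6% and 20.3%. The Pde1b exon tile, in a gene for a calmodulin-dependent phosphodiesterase, was uneven: W465A/W796A replicates read 50.8%, 23.8% and 1.59%, and only replicate 2 was near the pooled 24.6%. Pde1b also had the lowest W796A level of the 12, at 33.7%, 65.6% and 51.6%. The other 2, a promoter of the noncoding gene Gm22518 within the adaptor gene Shb and an exon of the transporter gene Abcc12, had pooled levels of 25% and 20.9% in W465A and 28.0% and 23.9% in W465A/W796A.

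**Figure D1:**
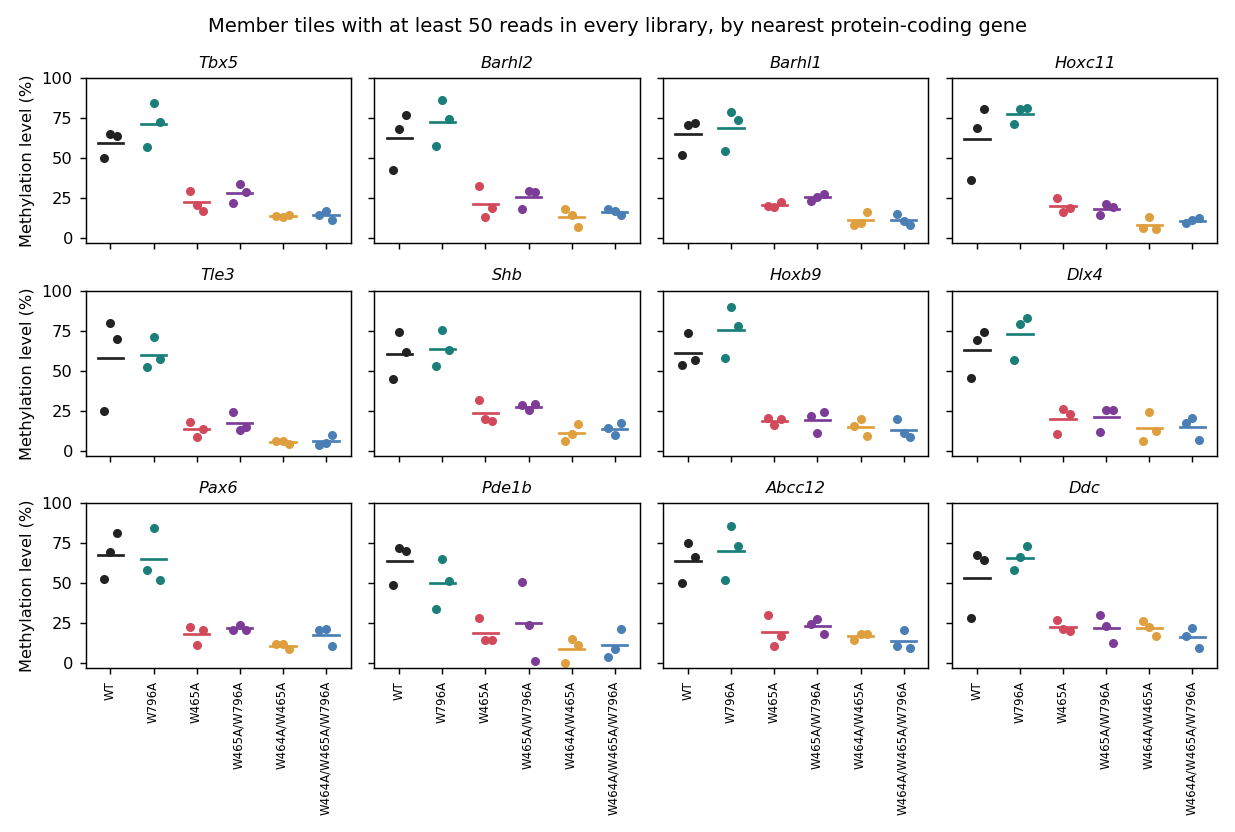
Methylation level (%) in each library (points, replicates 1 to 3 from left to right) and the mean of the 3 libraries (bar) for the 12 members with at least 50 reads in every library, titled by the nearest protein-coding gene. W465A and W465A/W796A overlap in 11 of the 12 panels, all but Barhl1. W465A/W796A at Pde1b runs from 1.59% to 50.8%, and WT at Tle3 from 24.7% to 80.2%.

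W796A libraries had no part in the rule. Over all 128 members, the pooled W796A level had a median of 72.0%, from 43.8% to 87.8%, and 111 members were at 60% or above. Library medians were 57.0%, 83.7% and 73.2% in W796A replicates 1 to 3, a mean of 71.3% ± 13.4 (SD, n = 3), beside 48.3%, 72.3% and 72.6% in WT. The other window tiles had a median of 73.3% in W796A. The quasi-binomial test, with Benjamini-Hochberg adjustment over all 155660 tiles, called 0 members in W796A against WT, where 0.00321% of all tiles were called (5 tiles, all higher in W796A), and the lowest adjusted p of a member was 0.871. At an unadjusted p under 0.05 there were 8194 of the 155660 tiles. Of these, 4 were members, each higher in W796A, among them those at Hoxc11 and Cpm. edgeR called 2 tiles and limma 1, none of them a member. At an unadjusted p under 0.05 they had 3906 and 5266 tiles, of which 1 and 5 were members. With the replicate number as a block, the tiles called rose to 136, still with 0 members. The rule set a minimum for WT, so these counts are given beside the background and nothing is read from them.

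**Figure D2:**
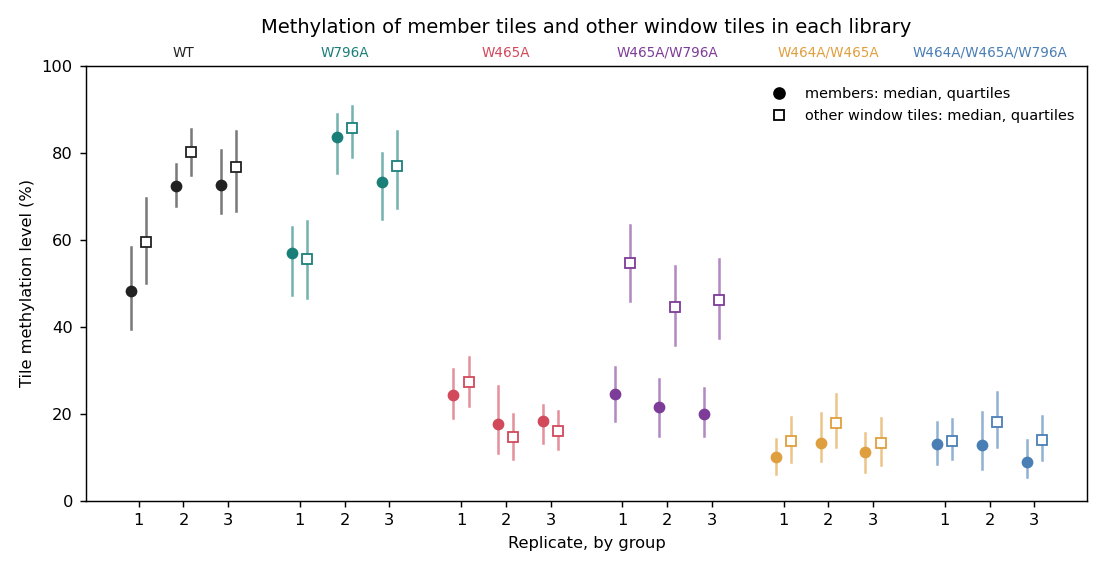
Tile methylation level (%) in each library, as the median (symbol) and quartiles (line) over the 128 members (filled circles) and the 22017 other window tiles (open squares), for replicates 1 to 3 of each group. The 2 sets part in W465A/W796A, where members sit at 20% to 24.6% and the others at 44.6% to 54.7%. WT, W465A and W465A/W796A chose the members.

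Members had lower medians than the other window tiles in both mutants that carry W464A with W465A, which the rule did not use. No test over the members was made of this difference. In W464A/W465A the median over members was 12%, from 0.98% to 26.3%, and over the other window tiles 15.6%. Library medians were 10%, 13.3% and 11.1% over members and 13.6%, 17.9% and 13.3% over the others, lower over members in each of the 3. In the triple mutant W464A/W465A/W796A the medians were 12.2% and 15.4%, with library medians of 13.1%, 12.8% and 8.83% over members and 13.8%, 18.2% and 14.0% over the others. Of the members, 120 were below their W465A level in W464A/W465A, against 75.2% of the other window tiles, and the median difference was -8.28 points against -4.23. W465A levels were part of the rule, so that last comparison is a description. Against WT, 128 of 128 members were called lower in W464A/W465A, where 84.5% of all tiles and 22000 of the 22017 other window tiles were called, and 127 in the triple mutant, where 84.6% of all tiles were. The rule required a high WT level, so nothing is read from these counts.

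Adding W796A to W464A/W465A, the contrast that used none of the libraries of the rule, gave no call at a member. The median difference was -0.48 points, from -15.1 to 20.8, beside -0.00167 over the other window tiles. The quasi-binomial test called 0 members and 0% of all tiles. At an unadjusted p under 0.05 it had 1662 of the 155660 tiles, of which 0 were members. Its overdispersion was estimated over all 6 groups, so the spread of the WT and W796A libraries entered it. The 0 calls therefore do not show that the levels were equal. A fit of these 2 groups alone, with the replicate number as a block, had 9281 tiles at an unadjusted p under 0.05. Of these, 6 were members, and 0 tiles were called. edgeR and limma also called 0 tiles. At an unadjusted p under 0.05 they had 2822 and 4035 tiles, of which 1 and 5 were members. The 3 triple-mutant libraries were all above the 3 W464A/W465A libraries at 4 members, where 4.55% of all tiles had that order, and all below at 6 members, where 4.52% had it. The highest and the lowest difference, at tiles named after they were seen, each rested on 15 reads in the lowest library. An intergenic tile 14889 bp from Osbp stood at 14.3% in W464A/W465A and 35.1% in the triple mutant, and one 48071 bp from Ctnnd1 stood at 23.0% and 7.95%.

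In the libraries that chose them, the members filled the low end of a continuous distribution. The W465A/W796A minus W465A difference had a median of 2.76 points over members, from -11.6 to 4.998, and of 29.3 points over the other window tiles, and 31 members were at or below 0. The 6 members nearest the limit had differences of 4.78 to 4.998 points, and the 6 tiles just outside it 5.02 to 5.23 points. Members were more frequent where reads were few. Of window tiles with at least 15 and under 20 reads in the lowest library 0.881% were members, of those with at least 50 and under 100 reads 0.238%, and of those with 100 or more 0.209%, which is 3 of 1435. The median reads in the lowest library were 24 for members and 30 for the others, and 51.6% of members had exactly 3 usable CpGs, against 39.3%. The SD between W465A/W796A libraries at a member had a median of 8.47 points, larger than the 5 points of the rule. Over the other window tiles it was 9.83 points. The rule itself uses levels pooled over 3 libraries.

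**Figure D3:**
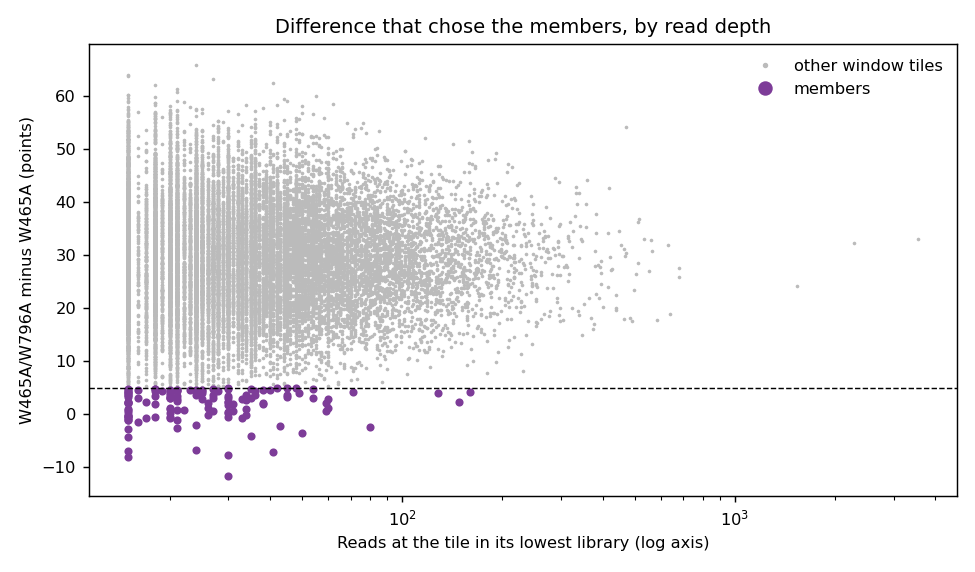
W465A/W796A minus W465A (percentage points) against the reads at the tile in its lowest library (log axis) for the 128 members (purple) and the 22017 other window tiles (grey), with the 5-point limit of the rule as a dashed line. The spread of the difference narrows as reads rise, and 12 members have 50 reads or more in every library.

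The same measure was read in libraries that had no part in choosing. When the rule was applied to 2 replicate numbers and the difference read in the third, 495, 130 and 161 tiles were chosen with replicate 1, 2 or 3 left out. Their median difference was 2.07, 1.98 and 2.67 points in the libraries that chose them. In the left-out libraries it was 16.7, 18.7 and 17.3 points, a mean of 17.6, against 22.8, 28.1 and 27.4 points, a mean of 26.1, for the other window tiles chosen the same way. A left-out difference of 5 points or less was found for 22.4%, 18.5% and 22.4% of the chosen tiles and for 10.9%, 7.85% and 6.52% of the others. The chosen tiles stayed below the other window tiles in each of the 3 readings, and the larger share of them exceeded 5 points there. CpGs of the members that the coverage filter had left out were also read. Over 106 members with at least 20 such reads per group, the difference had a median of 11.7 points, with quartiles of 3.94 and 22.0. Over the other window tiles the median was 24.7 points. These reads come from the same libraries, and 29 of the 106 members, 27.4%, were within 5 points there, against 6.15% of the other window tiles and 21.7% of all usable autosomal tiles.

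Membership varied with the library. Leaving out W465A/W796A replicate 1 gave 467 members, of which 105 were among the 128. Without WT replicate 1 there were 235, including 127 of the 128. Leaving out WT replicate 2 gave 85, of which 70 were among them, and leaving out W465A replicate 1 gave 86, of which 55 were. W465A replicate 1 was the highest of its group at 57.0% of members and at 76.0% of the other window tiles.

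Members with WT levels just above 60% were the most common. They made up 1.73% of window tiles between 60% and 65% in WT, 58 tiles, and 0.135% of those at 80% or more, 7 tiles. Within the 60% to 65% band, members had a median of 70.2% in W796A against 62.6% for the others. That gap was narrower in the 65% to 70% band (70.1% against 68.1%) and the 70% to 75% band (73.3% against 72.6%). It went the other way at 75% to 80% (72.7% against 75.8%) and at 80% or more (78.6% against 79.2%), bands of 6 and 7 members. In W464A/W465A the median over members was the lower in all 5 bands, by the most at 65% to 70%, with 11.2% against 14.6%, and in the triple mutant likewise, with 10.2% against 15.2% at 70% to 75%.

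By position, members fell on all 19 autosomes, from 3 on chromosome 14 to 14 on chromosome 2, with shares of window tiles from 0.267% on chromosome 8 to 1.15% on chromosome 15. They did not cluster: no member lay within 20 kb of another. In the GENCODE annotation, 51 were intergenic, 49 intronic, 12 exonic and 16 at a promoter, of which 8 were promoters of protein-coding genes. Exonic tiles made up 9.38% of members, 18.5% of the other window tiles and 18.3% of all usable autosomal tiles. Promoters made up 12.5%, 12.3% and 23.3%. Tiles at least 50% covered by soft-masked repeat sequence made up 7.81% of members, 16.0% of the other window tiles and 9.52% of all usable autosomal tiles. GC content had a median of 47.8% in members and 47.9% in the others, and the reference held a median of 14 and 15 CpGs per tile. The letters CCGG, the MspI site, which reads the same on both strands, were in 65.6% of members, 75.4% of the other window tiles and 78.3% of all usable autosomal tiles. TGCCGC, the core of the motif that the zinc finger protein ZFP57 binds when it is methylated, was searched on both strands and was in 12.5%, 15.1% and 18.7%.

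The 8 members at promoters of protein-coding genes included those of Barhl1, Elfn2, Cpm, Ikzf2, Ifngr1, Lypd6 and Ak7. Elfn2, a synaptic adhesion gene, read 29.5%, 26.3% and 11.5% in W465A and 23.4%, 21.8% and 26.3% in W465A/W796A, with 38 reads in its lowest library. Cpm, the carboxypeptidase M gene, had the highest W796A level of the 8, a pooled 81.9% against 62.7% in WT. Ikzf2 (a lymphoid zinc finger factor), Ifngr1 (an interferon gamma receptor chain), Lypd6 and Ak7 rested on 15 to 18 reads in the lowest library. The W465A/W796A libraries read 37.3%, 10.3% and 33.3% at Ifngr1 and 43.9%, 18.3% and 16.7% at Ikzf2, and lay closer together at Lypd6, with 12.8%, 19% and 23.3%.

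Since several of the deep members lay near genes for regulators of development, the whole set was searched for such genes. A list of 20 gene families of developmental transcription factors was drawn up after the names of members had been seen, so its counts are a description and support nothing. Only the gene a tile was annotated to and its nearest protein-coding gene were searched, where the latter lay within 20 kb. A family gene farther off than another protein-coding gene could thus be missed. By this search 12 members, 9.38%, were at a gene of these families, against 161 or 0.731% of the other window tiles and 1954 or 1.26% of all usable autosomal tiles. Of the 12 deep members 6 were in this set, at Barhl1, Barhl2, Hoxb9, Hoxc11, Dlx4 and Pax6, whereas those at Tbx5 (35668 bp away), Tle3, Shb, Pde1b, Abcc12 and Ddc were not, against 44 of 5209 other window tiles of that depth, 0.845%. Among tiles under 70% in WT the shares were 10 of 94 and 79 of 7293. The remaining 6 included tiles at Gata4, Scrt1, Hoxb3, Sim2 and Dlx6.

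The Sim2 tile, 5931 bp from this bHLH-PAS factor gene, read 20% in all 3 W465A libraries and 23.9%, 24.0% and 22.2% in W465A/W796A, with 67.7%, 84.5% and 76.2% in W796A. At the intronic tile of Gata4, a factor of heart and endoderm, W465A read 13%, 11.1% and 12.8% and W465A/W796A 6.25%, 25% and 10.3%. Only 17 reads backed its lowest library, and 15 those of the Hoxb3 and Scrt1 tiles. The replicates of the 2 groups overlapped at Gata4, and at Sim2 the W465A/W796A libraries were the higher by a pooled 3.29 points. Of the other gene lists, zinc finger Zfp genes were in or nearest to 4 members, 3.13%, against 2.07% of window tiles, and olfactory and vomeronasal receptor genes to 1 member, 0.781% against 1.22%, which lay 9120 bp from Vmn1r235. The germline, imprinted, protocadherin, pluripotency and de novo methylation and demethylation lists had 0 members each, but held only 0.0813% to 0.357% of window tiles, too few to read anything from a 0 among 128.

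Methylation around the members was lower than around the other window tiles. Among the 225 usable tiles within 5 kb of a member, the median was 51.5% in WT, 14.0% in W465A and 26.2% in W465A/W796A, with a median difference of 7.99 points between the last 2. These neighbours were of 2 kinds. The 101 with WT at 60% or above had a median difference of 21.1 points (quartiles 14.5 and 25.4), beside the 25.1 points of such tiles around the other window tiles. The other 124 had a median WT level of 12.2% and a difference of 0.28 points. The 23 neighbours that lay in the WT and W465A windows themselves differed by a median of 24.3 points, against 30.3 for window tiles near other window tiles. The median difference at methylated neighbours was thus over 20 points, while the rule kept the members at 5 or less.

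**Figure D4:**
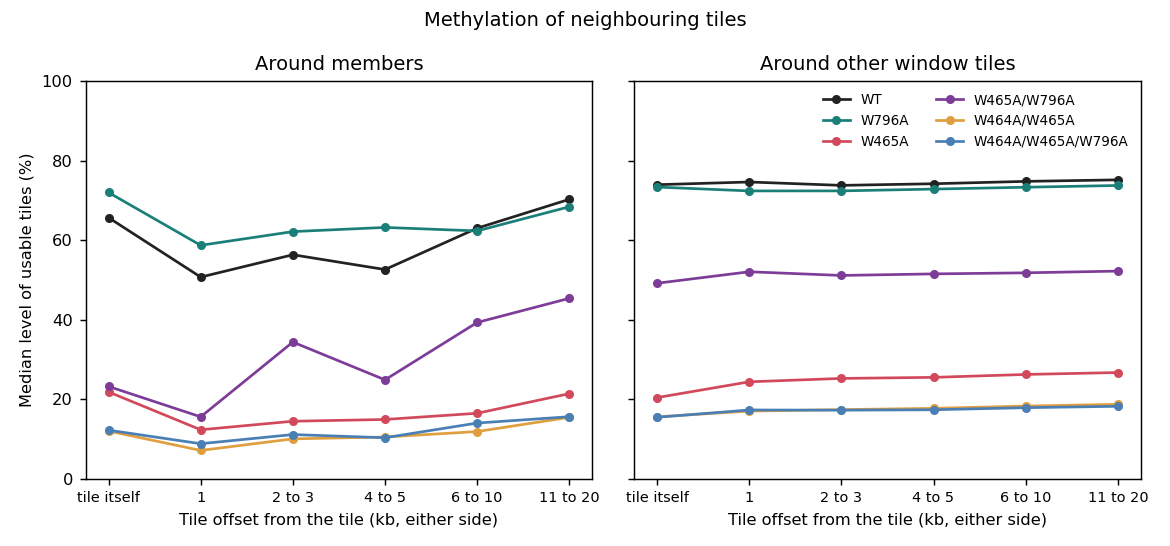
Median level (%) of usable tiles at increasing distance (kb, either side) from members (left) and from the other window tiles (right), in each group. Around members WT falls from 65.6% in the tile to 50.7% at 1 kb and returns to 70.2% at 11 to 20 kb, whereas around the other window tiles it stays between 73.8% and 75.2%.

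A usable tile under 20% in WT lay within 5 kb of 40 members, 31.25% (exact binomial 95% interval 23.4% to 40.0%, which covers counting error only), against 17.9% of the other window tiles and 23.8% of all usable autosomal tiles. Among tiles with any usable neighbour at that distance the shares were 43.5% of members, 26.8% of the other window tiles and 32.4% of all usable autosomal tiles. Among members and other window tiles under 70% in WT they were 36.2% and 20.6%. For the 12 deep members the share was 6 of 12, against 20% of other window tiles of that depth, and within 10 kb 9 of 12 against 33.5%. Members with such a neighbour had pooled medians of 20.4% in W465A and 20.6% in W465A/W796A, and the 88 without one 22.1% and 24.2%. Window tiles beside such a low tile were members in 1.01% of cases and the rest in 0.484%. With W465A/W796A replicate 1 left out of the rule the share of members beside a low tile was 20.1%, and without WT replicate 2 it was 42.4%. This neighbour comparison was made after the positions of the deep members had been seen, and the part that read depth, WT level or distance to genes has in it was not tested.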

How the data were processed

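The authors deposited 2 raw counts for each CpG in each library, methylated reads and total reads, in 1 table. The submitters' processing notes name cutadapt 1.2.1, Bismark 0.18.1 and Bowtie 1.2 and the build GRCm38; the removal of duplicates is not given in the sources used here, so PCR copies cannot be told from molecules. All 21867550 positions fell on reference CpGs of GRCm38. Counts were summed per 1 kb tile over CpGs with at least 5 reads in all 18 libraries, at least 3 per tile.

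The members and lists were chosen with earlier results of these data known. Each of 155660 tiles on all chromosomes was tested in a logistic model with quasi-binomial error and the 6 groups, with 12 residual degrees of freedom and overdispersion squeezed across tiles (prior 3.53 with 6.31 degrees of freedom), and an F test adjusted by the Benjamini-Hochberg method. Calls needed an adjusted p under 0.05 and 10 points. The model was also run on counts simulated from its own fitted levels and overdispersion. Such counts cannot show how well that fit describes these libraries. Alternatives used edgeR 4.0.16 and limma 3.58.1 (R 4.3.3), and other work Python 3.11.15 with numpy 2.4.6, scipy 1.17.1 and pandas 2.3.3.

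Tiles named in full were the 6 deepest, those with the lowest W465A/W796A difference or the highest or lowest W796A level among members with 50 reads in every library, members at protein-coding promoters and up to 2 per gene list. Some tiles that this rule names are not reported here. Genes came from GENCODE M21 annotation, with a promoter as 500 bp either side of a start. How far libraries with the same number departed from their groups correlated across tiles at 0.244, 0.264 and 0.144 between W796A and WT. This comes from the data and not from the labels. The main test used no pairing, and the number entered as a block in alternative fits only.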

Additional observations from a re-analysis of the deposited data

How the results depend on the processing

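The number of members stayed within 1.5 times of 128 under 18 of 26 alternatives. The rule uses no library of W796A, W464A/W465A or the triple mutant, so leaving out any of those could not change the number. It was 10 with a minimum of 10 reads per CpG, 38 with 5 or more usable CpGs per tile, 12 with 50 reads per tile in every library, 31 at a limit of 0 points above W465A and 490 at 10 points, and 85 to 467 when 1 library was left out. Tiles shifted by 500 bp gave 128, means of library levels 115 and means of CpG levels 106. The median over members moved to 14.0% in W464A/W465A with 5 or more CpGs. Leaving out 1 library gave 10.7% to 13.2% there, 10.9% to 13% in the triple mutant and 64.8% to 80.1% in W796A. The left-out difference of 17.6 points was 18.7 for replicate number 2 alone and 16.4 at a limit of 0 points. Most of the tiles it was read over were not among the 128. The difference in tiles near members, 7.99 points within 5 kb, was 13.6 within 20 kb. The share of members near a tile under 20% in WT had alternatives chosen after seeing the data. Within 2 kb it was 13.3%, against 8.36% of the other window tiles and 16.6% of all usable autosomal tiles. Within 10 kb it was 46.9%, against 29.7% and 33.5%. Over members with 50 reads in every library it was 50%. With 1 library left out it was 20.1% (without W465A/W796A replicate 1) to 42.4% (without WT replicate 2). The 0 members called in the triple mutant against W464A/W465A and in W796A against WT were 0 under all 31 alternatives of each, edgeR and limma and the leave-one-out fits (0 to 0) among them. With the replicate number as a block there were 0 members called in either of these contrasts, and 0 also in fits of the compared groups alone. In those fits W796A against WT had 42 tiles called over all chromosomes. At an unadjusted p under 0.05 it had 12042 tiles, of which 20 were members. The triple mutant against W464A/W465A had 9281 tiles there, of which 6 were members. Same-numbered libraries of the triple mutant and W464A/W465A correlated at -0.011, 0.022 and 0.013. These values near 0 cannot tell whether the number marks a pair there. The lowest library had under 30 reads at 60.9% of members and 49.1% of the other window tiles. Over all members the 5-point limit was smaller than the median SD between single W465A/W796A libraries, 8.47 points. That spread was not measured by read depth.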

Other observations

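At 387 window tiles W465A/W796A came within 5 points of WT or above it. Those tiles had nearly the same median as members in WT (65.9% against 65.6%) and W465A (20.5% against 21.8%), and 68.1% against 72.0% in W796A. In W464A/W465A and the triple mutant, which chose neither set, they stood at 18.3% and 18.3%, against 12% and 12.2% over members. By the search described above, 1 of the 387 and 12 of the 128 members were at a developmental family gene. A usable tile under 20% in WT lay within 5 kb of 16.0% and 31.25%. Exonic tiles made up 24.5% of the 387 and 9.38% of members. The median reads in the lowest library were 25 and 24. These are descriptions with no test, and the lists were drawn up after member names were seen.

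The lowest difference of all was at an intergenic tile on chromosome 4, chr4:57428001-57429000, 5247 bp from Palm2, chosen for its value. It read 29.1%, 12.5% and 20.4% in W465A and 4.76%, 2% and 18.5% in W465A/W796A, with 30 reads in its lowest library, and 47.2%, 88.9% and 65.5% in W796A.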
